A study of Mus musculus with 14 samples.

Results

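The Bcl2 family genes set the balance between survival and death in a lymphocyte, and their chromatin was examined here in Treg cells of mice built for the degradation of Foxp3 protein. The genes were the survival genes Bcl2, Bcl2l1 and Mcl1, the effectors Bax and Bak1, and the BH3-only genes Bcl2l11, Bbc3, Pmaip1 and Bid. Members were the ATAC-seq windows whose centre lay within 100000 bp of the start site of one of these 9 genes and closer to it than to that of any other protein-coding gene. This gave 285 of 240778 windows, each 201 bp wide, which formed 194 separate stretches once overlapping windows were joined. A window was assigned by distance alone, and the gene that it acts on was not tested.

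ATAC-seq, which tags open DNA with adapters carried by a transposase, was done on Treg cells of spleen and lymph nodes. All mice carried Foxp3-AID (Foxp3AID), in which the endogenous Foxp3 gene encodes a fusion to an auxin-inducible degron together with ZsGreen and Cre, and all received 5-ph-IAA. ROSA26-TIR1(F74G) mice (R26TIR1(F74G)) in addition carried the plant ligase receptor TIR1(F74G) and mCherry behind a stop cassette that Cre, made from the Foxp3 gene, removes, so that 5-ph-IAA is meant to deplete Foxp3 protein. R26WT mice lacked the receptor. Accessibility does not measure Foxp3 protein, so its depletion was not checked here. There were 4 R26TIR1(F74G) and 4 R26WT libraries on day 3 and 3 of each on day 7, and the labels give no age. The study's sorts took ZsGreen+ cells from R26WT mice and ZsGreen+mCherry+ cells from R26TIR1(F74G) mice, so genotype and gate cannot be told apart. For day 7 its text tells of Foxp3AID/WT mice and of resting and activated cells sorted apart, neither of which is in the labels. The libraries of both days came from different mice, so day and any difference in preparation cannot be told apart either.

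As background, mitochondrial apoptosis is decided by binding among proteins of one family. Bcl2, Bcl-xL (from Bcl2l1) and Mcl1 hold the effectors Bax and Bak1 in check. BH3-only proteins, among them Bim (from Bcl2l11), Puma (Bbc3), Noxa (Pmaip1) and Bid, are induced or activated by stress and either block the survival proteins or engage the effectors, which then permeabilise the outer mitochondrial membrane. Treg cells depend on Mcl1 and on interleukin-2 signals for their persistence, and Bim limits their number.

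The 250 bases upstream of the start site are shown for 1 gene of each role. The start-site windows described below overlap these stretches in part, by 117 bases at Bcl2, 74 at Bak1 and 176 at Bcl2l11. The stretches are RefSeq sequences on the GRCm38.p6 build, the build of the count table, printed 5′ to 3′ along the gene. Capitals mark matches to the motifs searched on both strands, none of which overlap each other in these stretches.
Bcl2 (survival), chr1:106714291-106714540, minus strand: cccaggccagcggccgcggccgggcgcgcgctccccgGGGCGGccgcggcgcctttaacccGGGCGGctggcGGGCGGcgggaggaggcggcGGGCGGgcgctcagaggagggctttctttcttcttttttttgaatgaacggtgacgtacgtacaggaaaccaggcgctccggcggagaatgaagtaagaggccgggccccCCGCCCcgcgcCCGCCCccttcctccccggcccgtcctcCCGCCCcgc
Bak1 (effector), chr17:27028628-27028877, minus strand: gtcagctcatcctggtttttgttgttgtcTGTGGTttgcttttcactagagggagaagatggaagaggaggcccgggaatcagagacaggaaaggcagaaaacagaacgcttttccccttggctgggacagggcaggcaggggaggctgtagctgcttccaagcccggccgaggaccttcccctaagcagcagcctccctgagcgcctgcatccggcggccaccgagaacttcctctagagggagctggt
Bcl2l11 (BH3-only), chr2:128125788-128126037, plus strand: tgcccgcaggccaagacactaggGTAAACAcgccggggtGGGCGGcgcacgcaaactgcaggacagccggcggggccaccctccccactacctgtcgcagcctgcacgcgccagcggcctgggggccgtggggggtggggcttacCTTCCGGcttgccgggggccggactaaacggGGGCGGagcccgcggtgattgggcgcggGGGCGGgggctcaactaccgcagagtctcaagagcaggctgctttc

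The motifs were a forkhead motif (TNTTTAC), a STAT motif (TTCNNNGAA), an ETS motif (CCGGAAG), a RUNX motif (TGTGGT), a cAMP response element (TGACGTCA), a GC box (GGGCGG) and the p53 decamer. The Bcl2 stretch held 7 GC boxes and had a GC content of 74.8%, against a median of 52.4% over the 32851 promoters of the table. The Bcl2l11 stretch had a GC content of 72% and held 3 GC boxes, 1 ETS match and 1 forkhead match that began 227 bases before the start site. The Bak1 stretch had a GC content of 58.4%, no GC box and 1 RUNX match that began 221 bases before the start site. This RUNX match and the Bcl2l11 forkhead match lay outside the start-site windows of these genes. In all promoters of the table, cut to the same 250 bases, a GC box was present in 32.7%, a RUNX match in 14%, a forkhead match in 10.9%, a p53 decamer in 7.13%, a STAT match in 7.02%, an ETS match in 6.91% and a cAMP response element in 1.55%.

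The table had an entry for 8 of the 9 genes, all but Pmaip1. Besides Bcl2 and Bcl2l11, GC boxes were found at Bid (3), Bax (2), Mcl1 (1) and Bbc3 (1). The other forkhead match was at Bbc3, 167 bases before the start site, the other ETS match was at Mcl1, and the only p53 decamer was at Bax. Bcl2l1 held no match, and no STAT or cAMP response match was found at any of the 8. These are matches of letters, not bound sites, and a motif can lie outside the stretch searched.

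Counts in windows ranged from 5653289 to 20184487 per library, with the lowest values in R26TIR1(F74G) replicate 1 on day 3 and R26WT replicate 3 on day 7 (6348754). Values below are CPM, counts scaled to a common library total after TMM normalization. All windows are equally wide, so levels were not scaled by width. Effects of base composition on counts were not corrected for, so levels of different genes are compared as a description only. Of 6 Treg and CD4 T cell markers, 5 had a start-site window. They were at 13 CPM for Il2ra, 15.2 for Ctla4, 14.1 for Ikzf2, 11.2 for Cd3e and 4.55 for Cd4. All 5 lay below the median of the start-site windows of all genes (16.6 CPM). Foxp3 had no window within 1 kb of a listed start site. Of 14 markers of B, myeloid and NK cells, 8 had no such window and the other 6 were at 1.12 to 3.12 CPM. Cd8a was at 1.33 CPM, but Cd8b1 was at 12.5 CPM. Summed levels of the B, myeloid, NK and CD8 T cell lists overlapped between genotypes on both days, and that of the Treg and CD4 T cell list was 57.6 to 65.7 CPM in R26WT and 55.5 to 57.3 CPM in R26TIR1(F74G) libraries on day 7. Its part in the results was not tested. The share of counts at the start-site windows of all genes was 20.4% to 24.1% per library.

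The 9 loci differed in how much accessible chromatin surrounded them. Bcl2l11 had 61 windows, Bid 49, Bcl2 48, Bcl2l1 36, Pmaip1 31, Bbc3 27, Mcl1 18, Bak1 11 and Bax 4, where the median over 15966 protein-coding genes with a window was 8. Bcl2l11 lay at percentile 98.6 of these genes and Bax at percentile 20. The effectors thus had 15 windows between them, and the BH3-only genes 168. The rule can give more windows to a gene with distant neighbours.

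**Figure D1:**
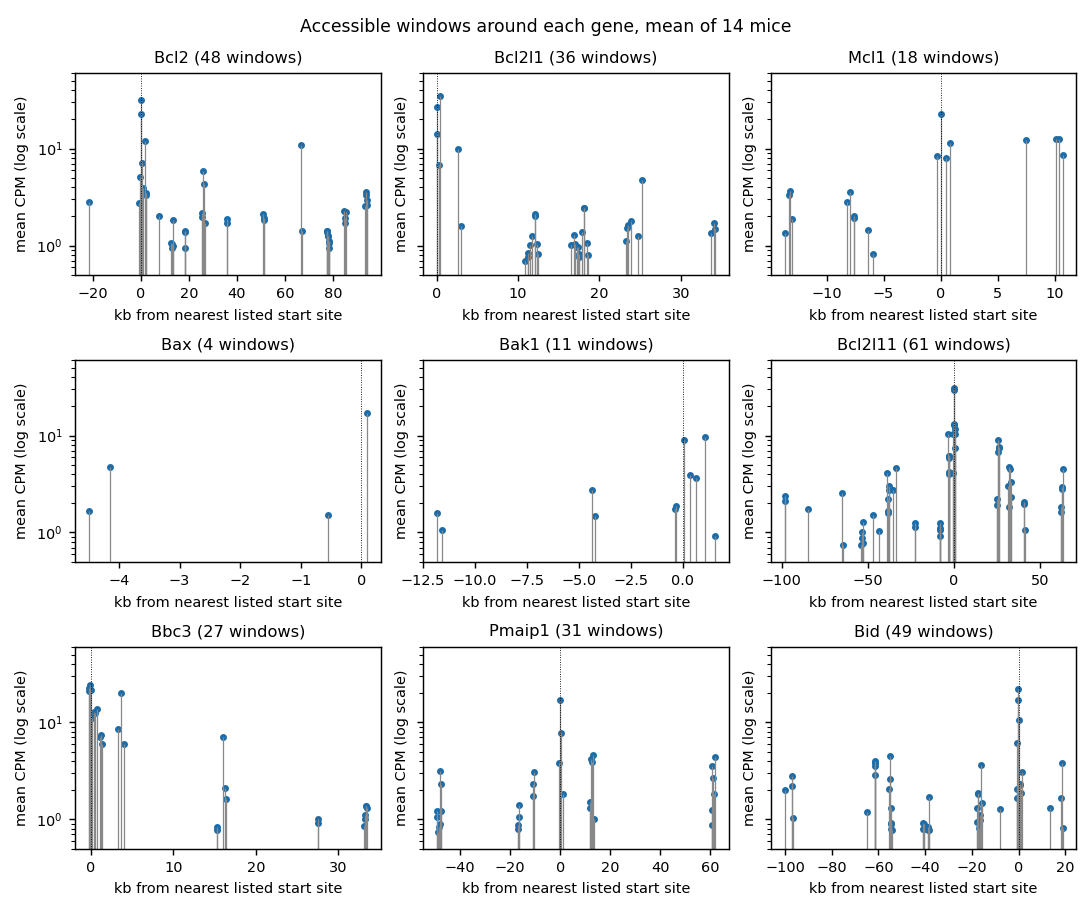
Mean accessibility (CPM, log scale, over the 14 libraries) of every window against its distance in kb from the nearest listed start site of the gene, with negative distances upstream. The tallest windows of Bcl2, Mcl1, Bax, Bcl2l11, Pmaip1 and Bid were those at the start site, and Mcl1, Bcl2, Bbc3 and Bcl2l11 also had windows above 10 CPM more than 2 kb from it.

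Most windows were weakly accessible. The median member window was at 1.94 CPM, against 1.80 CPM over all windows, and 34 of the 285 (11.9%) exceeded 10 CPM, against 8.91% of all windows. Of these 34 windows, 6 lay more than 2 kb from a listed start site. They were 3 windows of Mcl1, at 7504, 10079 and 10427 bp downstream of its start site and 12.3, 12.5 and 12.6 CPM, a window 66783 bp downstream of the Bcl2 start site and inside the gene at 10.8 CPM, a Bbc3 window 3636 bp downstream at 20 CPM, and a Bcl2l11 window 3433 bp upstream at 10.3 CPM. These distant windows were chosen for description after their levels were seen. At Bax, Bak1 and Bbc3, 74.5%, 81.9% and 74.1% of the summed accessibility lay within 2 kb of a listed start site. At Pmaip1, Mcl1, Bcl2l11 and Bcl2 the share was 36%, 42.4%, 45.5% and 48%.

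Levels at the start site gave a loose order. The start-site window, the one with its centre closest to a listed start site, had the highest mean at Bcl2, with 31.7 CPM ± 3.12 (SD, n = 14). Bcl2l11 followed with 30.9 CPM ± 4.17, and it was the lower of the pair in 7 of 14 libraries, so these neighbours could not be ordered. Both lay at percentiles 77.4 to 78.4 of the 12202 start-site windows of all genes, whose median was 16.6 CPM. By these windows, the survival gene and the BH3-only gene with the highest levels thus had neighbouring levels. The order depends on the window taken, since a Bcl2l1 window near another listed start site had 34.9 CPM.

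Mcl1 (22.7 CPM ± 4.24), Bid (22.0 CPM ± 2.62) and Bbc3 (21.6 CPM ± 2.57) formed the next group. Mcl1 was lower than Bcl2l11 in 14 of 14 libraries, above Bid in 8 of 14, and Bid was above Bbc3 in 7 of 14. Bax stood at 17.2 CPM ± 1.94, below Bbc3 in 13 of 14 libraries, and Pmaip1 at 16.9 CPM ± 2.55, below Bax in 9 of 14. Bcl2l1 was at 14.2 CPM ± 1.77. Bak1 was lowest at 9.08 CPM ± 1.65, percentile 33 of all start-site windows, and below Bcl2l1 in 14 of 14 libraries. The ranges of every pair of neighbours in this order overlapped across libraries.

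At 3 genes the most accessible window was not the one closest to a start site. At Bcl2l1 it lay 345 bp downstream of another listed start site, with 34.9 CPM, more than any other member window. At Bbc3 it lay 34 bp upstream of another listed start site with 24.1 CPM, and at Bak1 it lay 1047 bp downstream with 9.57 CPM.

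**Figure D2:**
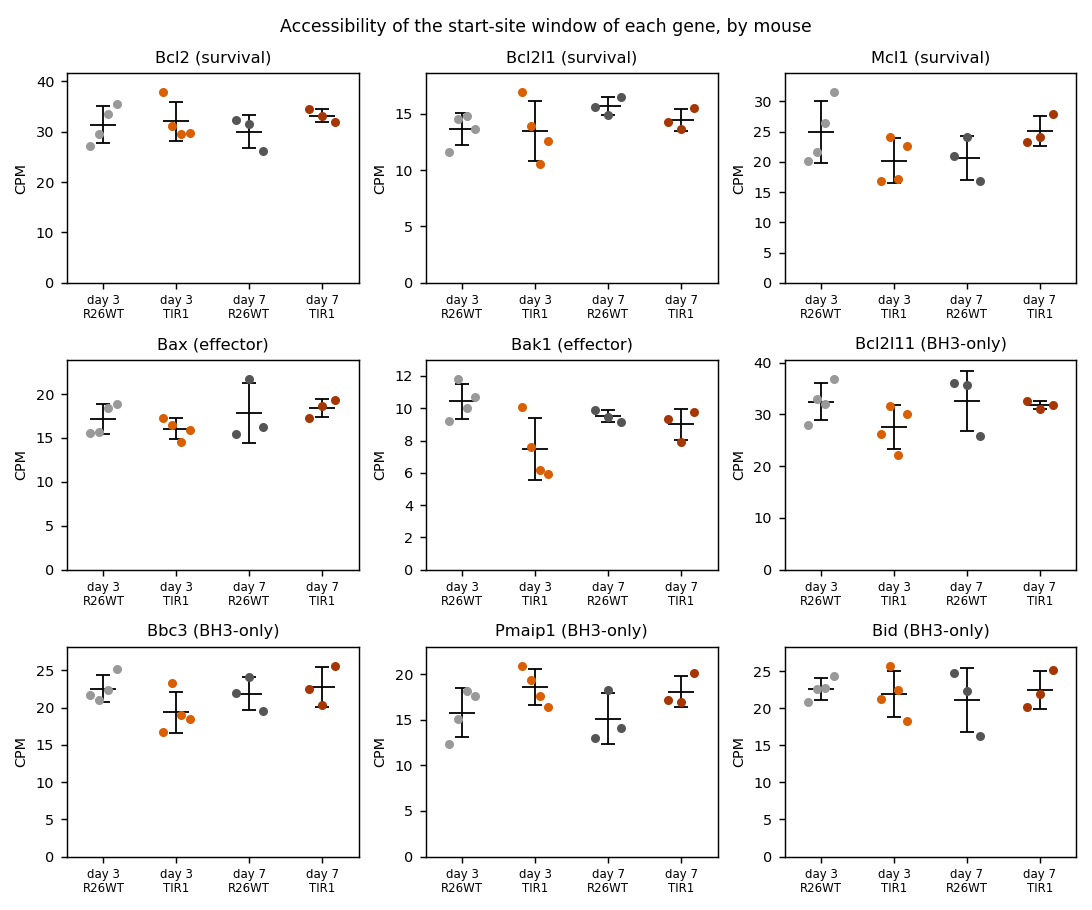
Accessibility (CPM) of the start-site window of each gene in every library (points), with the mean and SD of each group (black bars), for R26WT and R26TIR1(F74G) (TIR1) libraries on day 3 (4 each) and day 7 (3 each). Genotypes overlapped on both days at all 9 genes, and Bak1 on day 3 had the smallest p, with 9.18 to 11.8 CPM in R26WT and 5.95 to 10.1 CPM in R26TIR1(F74G) libraries.

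Whether this landscape differed between genotypes was asked on each day with edgeR's quasi-likelihood test over all windows. In such bulk samples, fewer cells with an open window and less opening per cell cannot be told apart. On day 7, none of the 284 member windows tested passed an adjusted p of 0.05, where 0.00463% of all windows did. DESeq2 called no member and 0 of all windows. An unadjusted p under 0.05 was reached by 14 member windows, 12 higher and 2 lower in R26TIR1(F74G) cells. This was 4.93% of the members, against 5.96% of all windows (6579 higher, 7600 lower). With DESeq2 it was 6 members, against 2.68% of all windows. Groups did not overlap at 28 of the 284 windows, against 11.8% of all windows. The median log2 fold change was 0.08 over member windows and -0.01 over all windows.

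On day 3, none of 281 member windows passed either, where 0% of all windows did with edgeR and with DESeq2. An unadjusted p under 0.05 was reached by 20 member windows, 7 higher and 13 lower in R26TIR1(F74G) cells. This was 7.12% of the members, against 7.55% of all windows (9225 higher, 8560 lower). With DESeq2 it was 9 members, against 4.99% of all windows. Groups did not overlap at 9 windows, against 4.1% of all windows. The median log2 fold change was -0.03 over member windows and 0.01 over all windows. No window had an unadjusted p under 0.05 on both days.

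The precision of these tests followed the counts. The 95% interval of the log2 fold change reached a median of 0.32 to either side on both days at the 90 member windows whose mean count reached 50. At the other 195 it reached 0.66 on day 7 and 0.63 on day 3. The median SD within a group was 14.7% of the mean in the former and 29% in the latter.

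**Figure D3:**
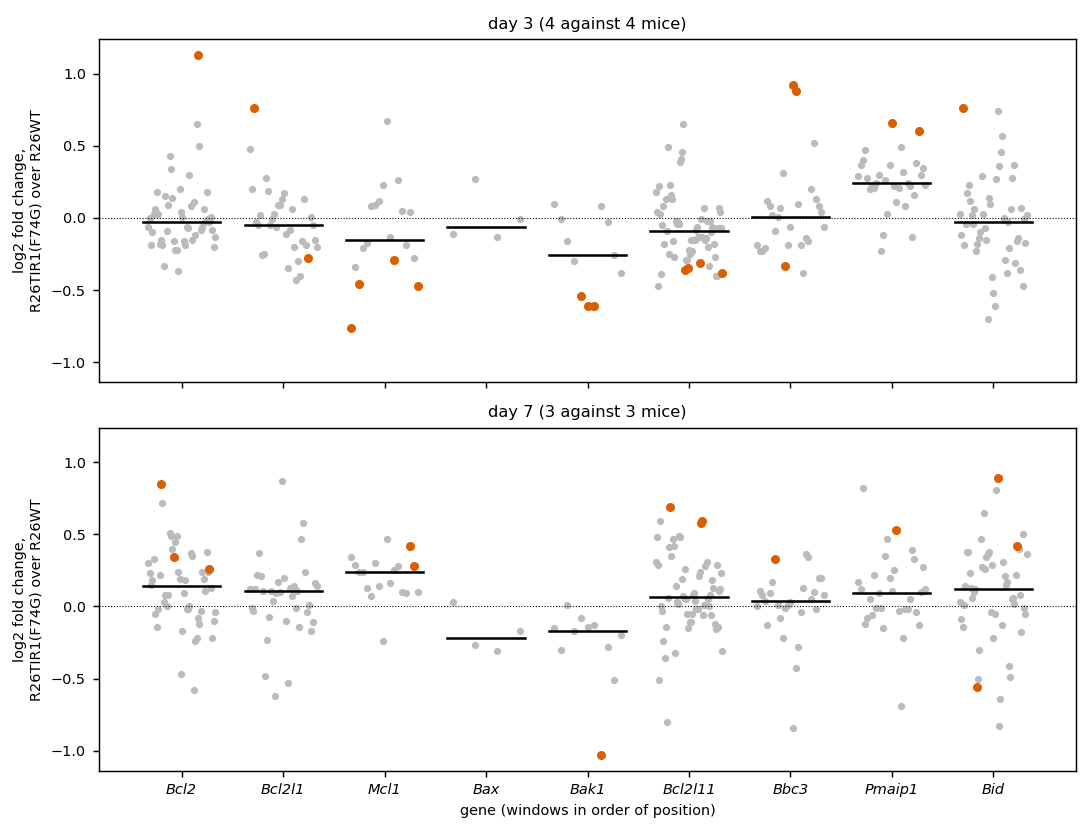
Log2 fold change of R26TIR1(F74G) over R26WT at each member window on day 3 (above, 281 windows) and day 7 (below, 284 windows), by gene and in order of position, with black bars for the median of each gene and orange for an unadjusted p under 0.05. No window passed the adjusted threshold, and gene medians stayed between -0.26 and 0.24.

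Among the survival genes, the Bcl2 start-site window had values within the same range in both genotypes. It had 27.2, 29.6, 33.4 and 35.4 CPM in R26WT and 37.8, 31.2, 29.5 and 29.8 CPM in R26TIR1(F74G) libraries on day 3. The day 7 values were 32.3, 31.5 and 26.2 CPM in R26WT and 34.5, 33.1 and 31.9 CPM in R26TIR1(F74G) libraries. The groups overlapped on both days, with a log2 fold change of 0.01 on day 3 (95% interval -0.22 to 0.25) and 0.13 on day 7 (-0.11 to 0.37). Bcl2 had 3 windows of 48 with an unadjusted p under 0.05 on day 7 (6.25%), all higher in R26TIR1(F74G) cells, and 1 on day 3 (2.08%). Over all windows the share was 5.96% on day 7 and 7.55% on day 3.

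The window 12844 bp into Bcl2 had the third smallest p of the members on day 3. It had 0.346, 0.529, 1.16 and 0.708 CPM in R26WT and 1.80, 1.39, 1.64 and 1.45 CPM in R26TIR1(F74G) libraries. The groups did not overlap, but the mean count was 14, and the log2 fold change of 1.13 (0.40 to 1.86) had an adjusted p of 0.495. On day 7 its log2 fold change was -0.08.

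At Bcl2l1, which encodes Bcl-xL, the start-site window had a log2 fold change of -0.05 on day 3 (-0.33 to 0.23, but 0.05 with loess offsets) and -0.11 on day 7 (-0.37 to 0.16). Its most accessible window had 31.9, 33.1, 39.5 and 41.7 CPM in R26WT and 34.7, 36.4, 28.2 and 33 CPM in R26TIR1(F74G) libraries on day 3. The day 7 values were 35.6, 35.1 and 28 CPM in R26WT and 37.5, 38.4 and 35.9 CPM in R26TIR1(F74G) libraries. The groups overlapped on day 3 and did not on day 7, where the log2 fold change was 0.16 (-0.07 to 0.40) with an adjusted p of 0.903. None of the 36 Bcl2l1 windows had an unadjusted p under 0.05 on day 7, where 5.96% of all windows did. On day 3, 2 of the 34 tested did (5.88%), against 7.55% of all windows.

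Mcl1, a short-lived survival protein, had estimates of opposite sign on the 2 days. Its start-site window had 20.1, 21.6, 26.4 and 31.5 CPM in R26WT and 16.9, 24.1, 17.1 and 22.6 CPM in R26TIR1(F74G) libraries on day 3. On day 7 it had 20.9, 24.1 and 16.9 CPM in R26WT and 23.2, 24.1 and 27.9 CPM in R26TIR1(F74G) libraries. Groups overlapped throughout. The log2 fold change was -0.29 on day 3 (-0.56 to -0.02, adjusted p = 0.631) and 0.25 on day 7 (-0.01 to 0.51, adjusted p = 0.847). The day 3 value was -0.15 without R26WT replicate 4 and -0.16 with loess offsets, and the day 7 value was 0.15 without R26WT replicate 3 and 0.38 without R26WT replicate 2.

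The Mcl1 window 10079 bp downstream of the start site, beyond the end of the gene, had the second smallest p of the members on day 7. It had 12.0, 9.88 and 9.90 CPM in R26WT and 15.5, 12.7 and 14.5 CPM in R26TIR1(F74G) libraries. The groups did not overlap, and the log2 fold change was 0.42 (0.13 to 0.70, adjusted p = 0.695). On day 3 it was 0.04, with R26TIR1(F74G) libraries from 9.61 to 17.1 CPM. In all, 17 of 18 Mcl1 windows had a positive estimate on day 7, against 49% of all windows and 55.6% of those whose mean count reached 50. On day 3, 10 of 18 had a negative one, against 67.5% of the windows with such counts, while 51.1% of all windows were positive. Windows of 1 gene share their libraries and can overlap, so counts of signs, here and at the genes below, are a description only. An unadjusted p under 0.05 was reached by 4 Mcl1 windows on day 3 (22.2%), all lower in R26TIR1(F74G) cells, and by 2 on day 7 (11.1%), both higher. Over all windows the share was 7.55% on day 3 and 5.96% on day 7. Over those whose mean count reached 50 it was 9.79% and 7.70%.

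**Figure D4:**
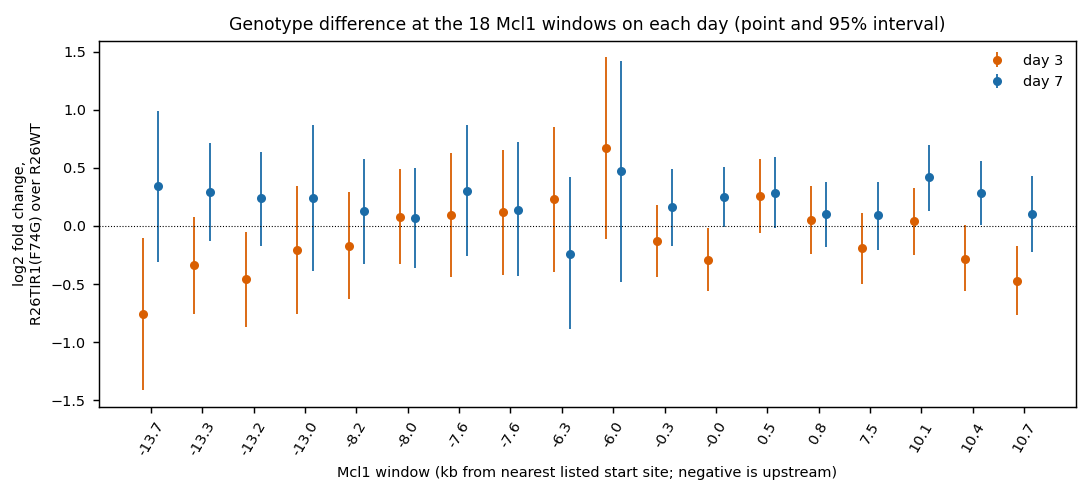
Log2 fold change of R26TIR1(F74G) over R26WT at the 18 Mcl1 windows, in order of distance from the start site, on day 3 (orange) and day 7 (blue), with 95% intervals. Estimates were positive at 17 windows on day 7 and at 8 on day 3, and the interval excluded 0 at 2 windows on day 7 and at 4 on day 3.

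The difference between days was itself tested as an interaction. No member window of 285 passed an adjusted p of 0.05 with edgeR or DESeq2, where 0% of all windows did with either. An unadjusted p under 0.05 was reached by 23 member windows (8.07%), against 6.32% of all windows, and with DESeq2 by 19, against 4.74%. Of these, 6 were among the 18 Mcl1 windows, in 5 separate stretches, and all 6 had a positive term, meaning a higher genotype difference on day 7. The term was 0.55 at the start-site window (0.15 to 0.94) and 0.56 at the window 10427 bp downstream (0.15 to 0.97), both with an adjusted p of 0.713. The latter had 15.8, 13.2, 12.0 and 13.8 CPM in R26WT and 11.3, 13.9, 8.65 and 10.9 CPM in R26TIR1(F74G) libraries on day 3, and 12.3, 11.2 and 11.2 against 14.9, 13.0 and 14.5 CPM on day 7.

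With the normalization over all windows, a shift of the same sign was present outside these loci. Over the 66750 windows whose mean count reached 50 the median interaction term was 0.11, and over the start-site windows of all genes it was 0.10. It was 0.29 over the Mcl1 windows, 0.12 over all member windows and 0.17 over the 90 members with such counts. When the windows with such counts were normalized and fitted on their own, the median was -0.00 over them and 0.06 over the members among them, and with total counts it was -0.07 over all windows and 0.07 over the members. On day 3 the start-site windows of all genes had a median log2 fold change of -0.11, as did those of the 9 members. The part of this shift in the Mcl1 values was not tested.

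The member window with the smallest p for the interaction was at Bbc3, 15291 bp downstream of the start site. It had 1.13, 0.397, 0.546 and 0.354 CPM in R26WT and 0.719, 1.07, 1.19 and 1.29 CPM in R26TIR1(F74G) libraries on day 3. On day 7 it had 0.840, 1.16 and 0.600 CPM in R26WT and 0.428, 0.656 and 0.455 CPM in R26TIR1(F74G) libraries. The groups overlapped on both days, the mean count was 11.0, and the term was -1.75 (-3.00 to -0.50, adjusted p = 0.711).

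Of the effectors, whose proteins form the pores, Bak1 had the smallest p of the members on day 3. The Bax start-site window had 15.6, 15.7, 18.4 and 18.9 CPM in R26WT and 17.3, 16.5, 14.5 and 15.9 CPM in R26TIR1(F74G) libraries on day 3. On day 7 it had 15.4, 21.7 and 16.3 CPM in R26WT and 17.3, 18.6 and 19.3 CPM in R26TIR1(F74G) libraries. Log2 fold changes were -0.11 (-0.36 to 0.15, but 0.01 with loess offsets) and 0.03 (-0.24 to 0.30) with overlapping groups, and none of the 4 Bax windows had an unadjusted p under 0.05 in any comparison.

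The Bak1 start-site window, which overlaps the printed Bak1 stretch by 74 bases, had 9.18, 11.8, 10.0 and 10.7 CPM in R26WT and 10.1, 7.62, 6.19 and 5.95 CPM in R26TIR1(F74G) libraries on day 3. All R26TIR1(F74G) values but that of replicate 1, the least deeply sequenced library, lay below every R26WT value. The log2 fold change was -0.54 (-0.85 to -0.23), with an adjusted p of 0.442 that ranged from 0.168 to 0.800 over the alternatives. On day 7 the values were 9.88, 9.48 and 9.15 CPM in R26WT and 9.36, 7.93 and 9.76 CPM in R26TIR1(F74G) libraries, with a log2 fold change of -0.08 (-0.38 to 0.22). The interaction term was 0.46 with an adjusted p of 0.785, so a difference between days was not established.

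Of the 11 Bak1 windows, 9 had a negative estimate on day 3, 10 on day 7 and all 11 over both days, with medians of -0.26, -0.17 and -0.29. Over the windows whose mean count reached 50, 67.5% had a negative estimate on day 3, 44.4% on day 7 and 59.3% with the days combined, while over all windows 51.1% were positive on day 3 and 49% on day 7. A weak window 4226 bp upstream, with a mean count of 19.9, had the third smallest p on day 7. It had 1.29, 1.74 and 3.00 CPM in R26WT and 1.12, 0.894 and 0.708 CPM in R26TIR1(F74G) libraries. The groups did not overlap, and the log2 fold change was -1.03 (-1.73 to -0.33, adjusted p = 0.695), against 0.08 on day 3.

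**Figure D5:**
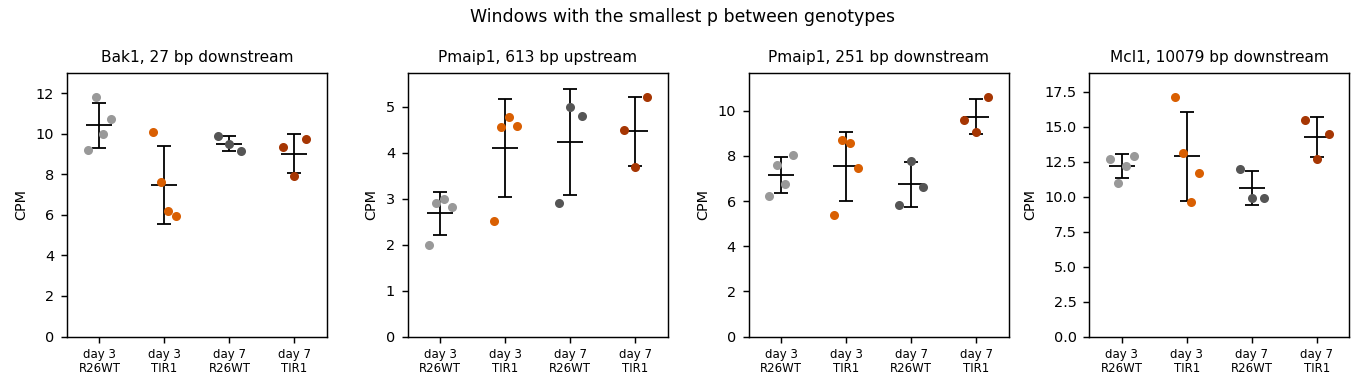
Accessibility (CPM) in every library (points) with the mean and SD of each group (black bars) at 4 of the windows with the smallest p between genotypes: Bak1 27 bp downstream and Pmaip1 613 bp upstream (day 3), Pmaip1 251 bp downstream and Mcl1 10079 bp downstream (day 7). Groups did not overlap at the latter pair on day 7, and 1 R26TIR1(F74G) library on day 3 lay within the R26WT range at each of the former.

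Among the BH3-only genes, Pmaip1 had the smallest p of the members on day 7. Noxa, its product, binds Mcl1. Its window 251 bp downstream of the start site had 5.81, 7.79 and 6.60 CPM in R26WT and 9.57, 9.06 and 10.6 CPM in R26TIR1(F74G) libraries on day 7. The groups did not overlap, and the log2 fold change was 0.53 (0.21 to 0.85), with an adjusted p of 0.613 that ranged from 0.240 to 1.00 over the alternatives. On day 3 the values overlapped, at 6.23, 7.61, 6.76 and 8.03 CPM in R26WT and 5.40, 8.69, 8.57 and 7.48 CPM in R26TIR1(F74G) libraries (log2 fold change 0.11).

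The window 613 bp upstream of Pmaip1 had its larger estimate on day 3. It had 1.99, 2.91, 3.00 and 2.83 CPM in R26WT and 2.52, 4.56, 4.77 and 4.58 CPM in R26TIR1(F74G) libraries on day 3, where replicate 1 was the lowest of each genotype and R26TIR1(F74G) replicate 1 lay within the R26WT range. The log2 fold change was 0.66 (0.25 to 1.07, adjusted p = 0.473) on day 3 and 0.11 on day 7, and the interaction term had an adjusted p of 0.801. The start-site window had log2 fold changes of 0.22 on day 3 and 0.25 on day 7 (intervals -0.05 to 0.48 and -0.03 to 0.53). Without R26WT replicate 1 they were 0.12 and 0.13, and the day 7 value was 0.43 without R26WT replicate 2. On day 3, 28 of 31 Pmaip1 windows had a positive estimate, with a median of 0.24, and on day 7 18 did, with a median of 0.09, where 51.1% and 49% of all windows did. Of the windows whose mean count reached 50, 32.5% did on day 3 and 55.6% on day 7. The 31 Pmaip1 windows formed 24 separate stretches, and their signs were not tested as a set.

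Bcl2l11, whose product Bim restrains Treg numbers, had lower estimates on day 3. Its start-site window had 28, 33, 32 and 36.8 CPM in R26WT and 26.3, 31.7, 22.1 and 30.1 CPM in R26TIR1(F74G) libraries on day 3. Day 7 values were 36.1, 35.6 and 25.9 CPM in R26WT and 32.6, 31.1 and 31.8 CPM in R26TIR1(F74G) libraries. The genotypes overlapped on each day, with log2 fold changes of -0.23 (-0.48 to 0.01) and -0.05 (-0.30 to 0.19). The day 3 value was -0.10 with loess offsets and -0.13 without R26TIR1(F74G) replicate 3. On day 3, 44 of its 61 windows had a negative estimate, with a median of -0.09. Of the windows whose mean count reached 50, 67.5% did, while over all windows 51.1% were positive. An unadjusted p under 0.05 was reached by 4 of the 61 (6.56%), all lower, against 7.55% of all windows. On day 7, 39 of 60 estimates were positive, with a median of 0.06, against 49% over all windows and 55.6% over those whose mean count reached 50.

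The Bcl2l11 window 62796 bp downstream of the start site, beyond the gene, had lower means in R26TIR1(F74G) cells on both days. It had 4.07, 5.49, 4.85 and 4.90 CPM in R26WT and 3.24, 4.29, 3.88 and 3.22 CPM in R26TIR1(F74G) libraries on day 3. On day 7 it had 5.49, 5.99 and 4.80 CPM in R26WT and 4.49, 4.47 and 4.40 CPM in R26TIR1(F74G) libraries. The groups overlapped on day 3 and did not on day 7, and over both days the log2 fold change was -0.34 (-0.60 to -0.09, adjusted p = 0.599).

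At Bbc3, which encodes the p53 target Puma, the start-site window had log2 fold changes of -0.21 on day 3 (-0.45 to 0.04, but -0.08 with loess offsets) and 0.04 on day 7 (-0.21 to 0.30). Its most accessible window had 22.2, 22.8, 26.4 and 29.7 CPM in R26WT and 21.6, 25.4, 20.2 and 21.2 CPM in R26TIR1(F74G) libraries on day 3, and 24.2, 29.2 and 20.4 against 26, 22.4 and 26.3 CPM on day 7. The groups overlapped on both days. Bid, which links death receptors to mitochondria, had log2 fold changes of -0.04 (-0.29 to 0.20, but 0.08 with loess offsets) on day 3 and 0.06 (-0.21 to 0.33) on day 7 at its start-site window. That window had 20.8, 22.6, 22.8 and 24.4 CPM in R26WT and 21.2, 25.7, 22.4 and 18.3 CPM in R26TIR1(F74G) libraries on day 3, and 24.7, 22.3 and 16.3 against 20.2, 21.9 and 25.2 CPM on day 7.

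With both days in 1 fit and day as a covariate, none of the 285 member windows passed an adjusted p of 0.05, where 0.0112% of all windows did. DESeq2 called no member and 155 of all windows. It left 210066 of 240777 windows without an adjusted p, and these could not be called. An unadjusted p under 0.05 was reached by 10 members (3.51%), 8 higher and 2 lower in R26TIR1(F74G) cells, against 6.73% of all windows (7604 higher, 8592 lower). With DESeq2 it was 9 members, against 5.88% of all windows. The smallest was that of the Bak1 start-site window, with a log2 fold change of -0.33 (-0.56 to -0.10, adjusted p = 0.550). The window upstream of Pmaip1 followed the Bcl2l11 window above with 0.40 (0.10 to 0.71, adjusted p = 0.617). This comparison shares its libraries with those of the single days.

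Day 7 was also compared with day 3 with genotype as a term. No member window passed, where 0.00332% of all windows did. DESeq2 called no member and 13 of all windows, but left 98032 of 240777 without an adjusted p. An unadjusted p under 0.05 was reached by 18 members (6.32%), 7 higher and 11 lower on day 7, against 5.47% of all windows (5721 higher, 7461 lower), and with DESeq2 by 14, against 4.63%. Those of Bbc3 were 5 windows, all higher on day 7, and those of Bcl2 were 4, all lower.

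The Bcl2 window 25945 bp downstream of the start site and inside the gene had the smallest p between days. It had 7.62, 7.34, 6.83 and 5.96 CPM in R26WT and 6.65, 6.55, 5.52 and 5.71 CPM in R26TIR1(F74G) libraries on day 3, and 5.69, 4.59 and 3.45 against 5.72, 4.83 and 5.62 CPM on day 7. Days overlapped, and the log2 fold change was -0.35 (-0.60 to -0.10, adjusted p = 0.835). The window 453 bp upstream of Bcl2 also had -0.35 (-0.60 to -0.09, adjusted p = 0.842), and the Bbc3 window 452 bp downstream of a start site had 0.26 (0.06 to 0.45, adjusted p = 0.877).

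Sums over the windows of each role were compared between groups as a description. On day 7 they were 411 CPM ± 25.1 in R26WT and 457 CPM ± 12.3 in R26TIR1(F74G) libraries for the survival genes, 68.4 ± 2.28 and 61.6 ± 2.30 for the effectors, and 720 ± 61 and 765 ± 29.8 for the BH3-only genes (SD, n = 3). On day 3 they were 444 ± 21.9 and 420 ± 35, 64.8 ± 1.73 and 57.6 ± 7.01, and 728 ± 39.5 and 694 ± 47.4 (SD, n = 4). These sums were not tested. The R26TIR1(F74G) mean was the higher on day 7 and the lower on day 3 for the survival and BH3-only genes, and the lower on both days for the effectors. By gene, the sums of Bak1, Mcl1 and Bcl2l1 did not overlap between genotypes on day 7, while on day 3 those of every gene overlapped. Over the 15966 genes with windows, sums did not overlap for 12.5% on day 7 and 7.84% on day 3. Bak1 had 39.5 to 42.3 CPM in R26WT and 34.3 to 37.4 CPM in R26TIR1(F74G) libraries, Mcl1 had 110 to 116 and 122 to 140 CPM, and Bcl2l1 had 129 to 136 and 139 to 143 CPM.

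Of 33 other genes of the pathway, 32 had windows, 622 in all, and none of these passed an adjusted p of 0.05 in any of the 5 comparisons. They were other survival and BH3-only genes, Bok, caspases with Cycs, Apaf1 and Diablo, caspase inhibitors, the Fas arm, and Trp53, Mdm2, Foxo and Stat5 genes. On day 7, 40 of 616 (6.49%) had an unadjusted p under 0.05, 16 higher and 24 lower in R26TIR1(F74G) cells, against 5.96% of all windows. On day 3, 34 of 618 (5.50%) did, 9 higher and 25 lower, against 7.55% of all windows. Over both days 43 of 622 (6.91%) did, 6 higher and 37 lower, against 6.73% of all windows (7604 higher, 8592 lower). Their smallest adjusted p between genotypes was 0.455 on day 7, at a gene of the death receptor arm, 0.405 on day 3 and 0.196 over both days, the latter pair at caspase inhibitors. The median log2 fold change over these windows was -0.01 on day 7, -0.06 on day 3 and -0.03 in the fit of both.

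Which genes varied most like the 3 loci with the most windows was described with Pearson's r of log2 summed CPM over the 14 libraries, among 11654 other genes with at least 5 windows. For Bcl2l11 these were Vps18 (r = 0.95) and Mkrn1 (0.93), for Bcl2 they were Cgrrf1 (0.94) and Zfp229 (0.90), and for Bid they were Slc66a2 and Snx16 (both 0.84). The best member partners were Bbc3 for Bcl2l11 (0.82), Bcl2l1 for Bcl2 (0.64) and Bcl2 for Bid (0.52). The points share library depth and enrichment, and the 99th percentile of r over the genes compared was 0.86, 0.81 and 0.70 for Bcl2l11, Bcl2 and Bid.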

How the data were processed

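Chromatin accessibility was measured by ATAC-seq in 14 libraries of Treg cells. The authors aligned reads with bowtie2 to mm10, called peaks with MACS2, merged reproducible peaks and counted reads at summits with featureCounts, and the deposited values are raw counts per window. For peak calling, reads were shifted and extended around the cut site, and the handling of duplicates is not given in the sources used here. Every deposited window reached a mean count of 10 (the lowest of a member was 10.1). Samples were grouped by their labels, and each column was matched by the mouse named in both.

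Members, gene lists and tests were chosen with earlier results of these data known. Windows were assigned to protein-coding start sites in RefSeq coordinates of GRCm38.p6, and exons were not used. Counts were tested with edgeR 4.0.16 (quasi-likelihood, TMM, mean count of at least 10 in the libraries fitted, Benjamini-Hochberg adjustment over all windows, threshold 0.05), with limma 3.58.1, R 4.3.3 and Python 3.11.15, and DESeq2 1.42.0 was an alternative. Intervals are 95% intervals derived from each fold change and its F statistic, and SDs are between libraries. Replicates are separate mice by their library names, and their counts differed by more than counting error (chi-square per degree of freedom 1.63 to 2.46 in 18 pairs). Reads from PCR carry no molecular identifiers, so variation from PCR cannot be told apart from that between mice. The intervals rest on the variation estimated between libraries, not on counting error alone.

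Windows named are, per gene, the start-site window (within 1 kb of a listed start site) and the one with the highest mean CPM, and, per comparison, the 3 with the smallest p. Windows over 2 kb from a start site and the others named beside counts were chosen after their values were seen. Scripts were tested on simulated data. Alternatives were DESeq2, its size factors in edgeR, total counts, loess offsets, no filter, a mean count of 50, each library left out, a replicate block, the prefix of the mouse name as a term, all 14 libraries in 1 fit, distances of 2 kb and 1 Mb, a threshold of 0.1 and, chosen after seeing the data, all listed start sites.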

Additional observations from a re-analysis of the deposited data

Results flagged for a closer look

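In the groups of 4 on day 3, a single library stood away from the other 3 by more than Dixon's 95% limit in 4 of the 62 combinations of named window and group, where independent combinations not chosen by their values would give about 3.1. At the window 613 bp upstream of Pmaip1 this was R26WT replicate 1 with 1.99 CPM (others 2.83 to 3.00) and R26TIR1(F74G) replicate 1 with 2.52 CPM (others 4.56 to 4.77). At the Bcl2l11 window 3433 bp upstream it was R26WT replicate 1 with 9 CPM (others 11.5 to 12), and at the Bbc3 window 452 bp downstream of a start site it was R26WT replicate 3 with 14.2 CPM (others 10.4 to 11). Some of the named windows were chosen for a small p and all share the same libraries, so the count of 3.1 is only a rough guide.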

How the results depend on the processing

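The count of member windows past the adjusted threshold stayed at 0 in all 5 comparisons under every alternative that was run. In the comparisons fitted on all 14 libraries, leaving out the filter changed nothing, since every window reached a mean count of 10. DESeq2 left many windows without an adjusted p over both days and between days. The lowest adjusted p of any member window was 0.168, at the Bak1 start-site window on day 3 without R26TIR1(F74G) replicate 1. With members taken within 100 kb, counts at an unadjusted p under 0.05 ranged from 6 (DESeq2) to 21 (without R26WT replicate 1) on day 7, from 6 (mean count of at least 50) to 30 (without R26TIR1(F74G) replicate 2) on day 3, from 9 to 15 over both days, from 10 to 32 for the interaction and from 9 to 24 between days. Taken within 2 kb of the 1 start site per gene used for assignment (45 windows) they were 3, 6, 4, 3 and 2 in that order. Within 2 kb of any listed start site (58 windows) they were 4, 6, 5, 5 and 5, and within 1 Mb 22, 27, 20, 28 and 28. On day 3 the counts within 100 kb fell by over 1.5 times, to 11, 12 and 11, without R26WT replicates 3 and 4 and R26TIR1(F74G) replicate 3. The interaction count was 13 and 15 without R26TIR1(F74G) replicates 1 and 3 of day 7, and the count between days was 10 without R26WT replicate 1 of day 3. Of 32 fold changes of named windows, 23 kept their sign under every alternative, and the sign changes given below are among these 32. They were the start-site and smallest-p windows on each day, but only the smallest-p windows in the other comparisons. Start-site windows there also changed sign: the Pmaip1 interaction term kept its sign in 13 of 22 alternatives and the Bcl2 value between days in 8 of 21. Others did not, such as Bbc3 over both days (22 of 22). With a term for the mouse name prefix, day 7 values became -0.03 at Bid, -0.05 at Bbc3 and -0.00 at Bax. On day 3, total counts, loess offsets and a mean count of at least 50 gave 0.00, 0.05 and 0.03 at Bcl2l1 and 0.01, 0.08 and 0.05 at Bid, and loess offsets gave 0.01 at Bax. With 1 library left out, sign changes occurred at the start-site windows of Bak1 on day 7 (-0.14 to 0.00), Bcl2l11 on day 7 (-0.17 to 0.02), Bid on day 7 (-0.07 to 0.18), Bbc3 on day 7 (-0.05 to 0.12), Bax on day 7 (-0.08 to 0.22), Bcl2 on day 3 (-0.06 to 0.08), Bcl2l1 on day 3 (-0.14 to 0.06) and Bid on day 3 (-0.13 to 0.04). The median over member windows on day 3 was 0.02 with total counts. It was -0.11 within 2 kb of the start site used for assignment and -0.05 within 2 kb of any listed start site. The median interaction term of 0.12 was 0.07 with total counts and 0.06 for windows whose mean count reached 50. At the start-site windows on day 3, loess offsets gave -0.16 at Mcl1, -0.10 at Bcl2l11 and -0.08 at Bbc3, and the limit of 50 gave -0.15 at Bcl2l11 and -0.11 at Bbc3. On day 7 the Bcl2 value of 0.13 was 0.06 without R26WT replicate 3. Over all windows, the counts of 11 on day 7 and 27 over both days were 0 and 155 with DESeq2, 46 and 81 for windows whose mean count reached 50, and 24 and 50 with loess offsets. They were 0 and 15 with the prefix term, 52 and 14 with the replicate block, and 0 and 12 without R26TIR1(F74G) replicate 3 of day 7. On day 7 only that library came from a mouse with the E prefix, so prefix and library cannot be told apart there. The causes were not tested.

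Replicate numbers are shared between genotypes, but same-numbered libraries did not deviate together (correlations -0.0787 to 0.0652 over 7 pairs), and the main tests did not pair them. These correlations cannot settle whether such mice shared a litter or a preparation. With the replicate block, the count past the adjusted threshold was 0 in the 4 comparisons fitted, and the counts at an unadjusted p under 0.05 were 12 on day 7, 20 on day 3, 11 over both days and 18 for the interaction. The block was not run between days, since it lies within a day. Depth limits the weak windows most: 195 of the 285 had a mean count below 50.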
